A study of Homo sapiens with 12 samples.

Results

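The experiment asked what a short hairpin RNA against ZBTB7B did to the transcriptome of HT29, an established line from a human colon carcinoma. The members are the 3 shZBTB7B libraries and the 3 CTRL_shZBTB7B libraries, 6 of the 12 libraries of the series, and the genes with at least 1 TPM (transcript abundance scaled to the same total in every library) in at least 3 of these 6, which were 13665 of 18665. All 6 libraries carry the label HT29 and were made from total RNA with probe capture. Cells of the shZBTB7B group carried the hairpin, and CTRL_shZBTB7B is the control line made for it. The labels give no dose, time, hairpin sequence or clone number, and they do not say whether the 3 replicates of a group were separate cultures, so each p-value below measures only the spread between these libraries. The other 6 libraries belong to an experiment with an ALDH1A inhibitor and were not used here.

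ZBTB7B, also called ThPOK or cKrox, is a zinc finger transcription factor of the POK family. A BTB domain at one end of the protein pairs molecules and recruits corepressors, and the zinc fingers at the other end bind DNA. In mouse thymocytes it commits cells to the CD4 lineage, and in skin fibroblasts it was described as a regulator of type I collagen genes. The study asked whether it acts on LDHA, the enzyme that makes lactate from pyruvate, and on CD274, which encodes the checkpoint ligand PD-L1.

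The libraries differed in makeup within groups as well as between them. Of the genes tested, 4884, 664 and 4106 were listed at 0 in shZBTB7B replicates 1, 2 and 3, against 104, 196 and 133 in the CTRL_shZBTB7B replicates. Values between 0 and 1 TPM were given for 84, 2637 and 72 genes in the shZBTB7B libraries and for 2349 to 2774 genes in the control libraries. So shZBTB7B replicates 1 and 3 hardly held values under 1 TPM, and replicate 2 held as many as the controls. Over the genes tested, Spearman's rho between shZBTB7B replicates 1 and 3 was 0.67, and shZBTB7B replicate 2 had 0.30 and 0.25 with them but 0.69 to 0.73 with the 3 controls. In makeup shZBTB7B replicate 2 also differed from the controls. Its top 10 genes took 40.3% of TPM, against 19.0%, 14.7% and 11.9% in CTRL_shZBTB7B. Genes named MTRNR2L took 29.9% of its TPM, against 10.4%, 4.78% and 2.44% in CTRL_shZBTB7B. TPM carries no read depth, so the depth is unknown and no counting interval can be given.

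**Figure D1:**
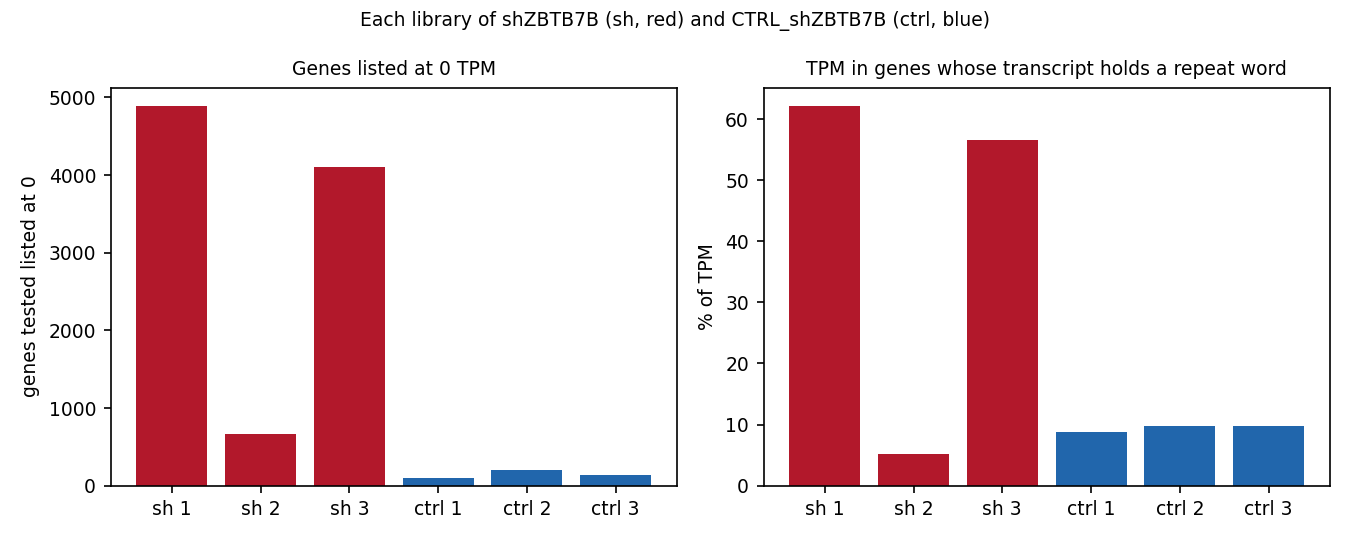
Left, number of the 13665 genes tested that were listed at 0 TPM in each library; right, percent of TPM in genes whose transcript holds a repeat word, as defined in the text. Bars are single libraries, shZBTB7B in red and CTRL_shZBTB7B in blue. On both measures shZBTB7B replicates 1 and 3 stand apart, with 4884 and 4106 genes at 0 and 62.1% and 56.5% of TPM. The bars of shZBTB7B replicate 2 stand nearer the controls but outside their range, with 664 genes at 0 and 5.17% of TPM.

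Markers of colon epithelium were mostly low or at 0 in libraries labelled as a colon line. CDX2, which sets intestinal identity, had 5.32 TPM in the first shZBTB7B library and was listed at 0 in the other 5, and GPA33, a colon surface antigen, was listed at 0 in all 3 shZBTB7B libraries and reached at most 1.02 TPM in the controls. The sum of 9 colon markers was 1091, 56.7 and 99.6 TPM in shZBTB7B, against 7.45, 2.83 and 69.7 TPM in CTRL_shZBTB7B. Contractile genes of smooth muscle, summed over 5 markers, gave 171, 414 and 224 TPM in shZBTB7B, against 9855, 60570 and 330 TPM in CTRL_shZBTB7B. T cell, plasma cell and stomach genes reached high levels as well. CD3E was at 387 and 409 TPM in CTRL_shZBTB7B replicates 1 and 3, JCHAIN at 3108 TPM in shZBTB7B replicate 2, and the stomach genes PGA3, PGC and LIPF at 21770, 7482 and 10532 TPM in shZBTB7B replicate 2. The markers thus go against the label of a pure colon line, and the extraction text of the labels speaks of tissue.

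The target of the hairpin was lower in every shZBTB7B library than in every control. ZBTB7B (chromosome 1, 154975106 to 154990999 in GRCh37) was at 2.55, 5.97 and 0 TPM in shZBTB7B, against 22.3, 25.1 and 25.4 TPM in CTRL_shZBTB7B. The controls lay close together and the groups did not overlap. The mean was 2.84 ± 3.00 TPM in shZBTB7B and 24.3 ± 1.66 TPM in CTRL_shZBTB7B (SD, n = 3 each). The difference of -3.11 on the log2 scale (SE 0.93) missed the threshold (limma adjusted p = 0.058), and without shZBTB7B replicate 2 it was -3.74 and passed (limma adjusted p = 0.00946). The median gene tested stood at -1.45, so ZBTB7B was 1.67 on the log2 scale below the median gene. After quantile normalization, which moved that median to -0.23, the fold change of ZBTB7B was -1.64 (limma adjusted p = 0.271).

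LDHA, the subunit of lactate dehydrogenase that favours lactate, and CD274 were lower as well. LDHA (chromosome 11, 18416107 to 18429972) was at 128, 89.5 and 86.0 TPM in shZBTB7B, against 260, 454 and 504 TPM in CTRL_shZBTB7B. The groups did not overlap, but the difference of -1.96 (SE 0.61) did not pass (limma adjusted p = 0.0628), and it lay only 0.52 below the median gene. CD274 (chromosome 9, 5450503 to 5470566) was listed at 0 in all 3 shZBTB7B libraries and was at 3.66, 2.22 and 16.1 TPM in CTRL_shZBTB7B. It passed (limma adjusted p = 0.0451), and no fold in TPM is given against a group listed at 0. On the log2(TPM + 1) scale it lay 1.22 below the median gene. Without shZBTB7B replicate 2 it still passed (limma adjusted p = 0.0386), but after quantile normalization it did not (-1.06, limma adjusted p = 0.371). Of the genes tested, 2837 were listed at 0 in both shZBTB7B replicates 1 and 3, and 270 in all 3 shZBTB7B libraries. Like CD274, these 270 passed the filter through the 3 controls alone, so their groups could not overlap. Limma called 242 of the 270 lower, so the call does not set CD274 apart from most genes of this kind. T cell markers summed to 7.47, 38.1 and 0 TPM in shZBTB7B, against 858, 14.7 and 979 TPM in CTRL_shZBTB7B, and their part in the CD274 values was not tested.

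**Figure D2:**
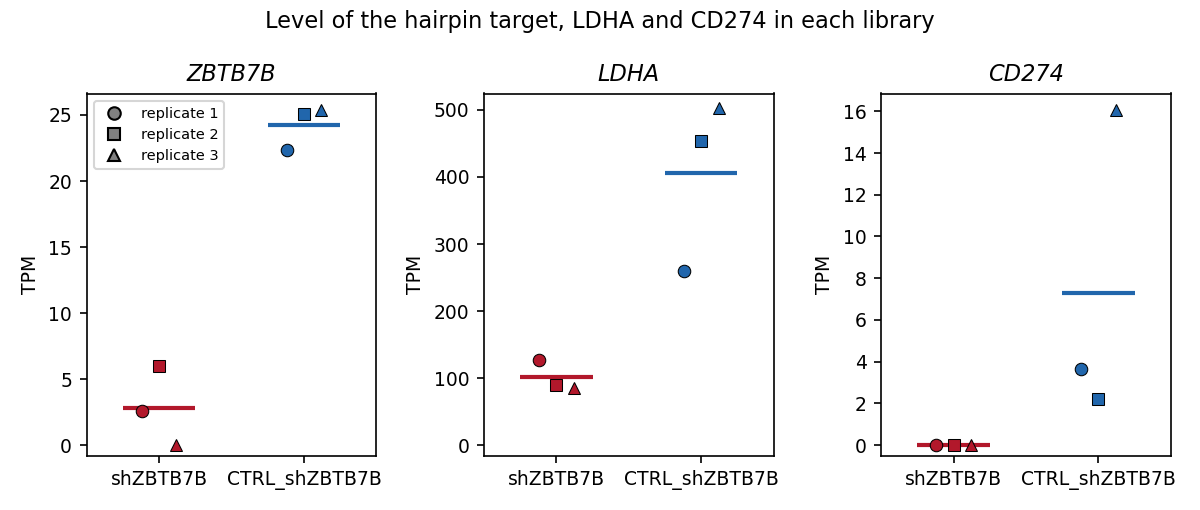
TPM of ZBTB7B, LDHA and CD274 in each library; points are libraries, with shapes for the replicate number, and horizontal bars are group means (n = 3 each). All 3 shZBTB7B libraries lie below all 3 CTRL_shZBTB7B libraries for each gene, and the CTRL_shZBTB7B values of ZBTB7B span only 22.3 to 25.4 TPM.

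The other genes that the study followed did not separate. ALDH1A1, a retinaldehyde dehydrogenase and the enzyme at the centre of the study, was listed at 0 in shZBTB7B replicate 1 and at 855 and 60.4 TPM in replicates 2 and 3, against 22.0, 57.8 and 31.8 TPM in CTRL_shZBTB7B. The shZBTB7B values lay on both sides of the controls. XBP1, which switches on genes against protein misfolding, was at 5.43, 91.8 and 48.0 TPM in shZBTB7B and at 94.6, 46.8 and 661 TPM in CTRL_shZBTB7B, with overlap. GATA4, an endoderm factor, was at 2.68, 17.7 and 3.56 TPM in shZBTB7B, against 2.71, 0 and 5.37 TPM in CTRL_shZBTB7B. None of the 3 genes passed (limma adjusted p = 0.978, 0.210 and 0.347).

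Across the transcriptome far more genes fell than rose. Limma called 1602 of 13665 genes (11.7%), 98 higher (0.717%) and 1504 lower (11.0%), and 0 genes met the study's own thresholds (an absolute log2 fold change above 1 and an FDR under 0.001), while 5317 had an unadjusted p under 0.05. In every called gene the groups did not overlap, which held for 45.4% of all genes tested, 3.02% with shZBTB7B above and 42.4% with it below. The genes called lower had a median group mean of 0.737 TPM in shZBTB7B and 18.9 TPM in CTRL_shZBTB7B, and 242 of them were listed at 0 in all 3 shZBTB7B libraries. A gene under 1 TPM in all 3 libraries of a group passed the filter only through the other group, so its groups could not overlap. The genes called higher had median group means of 76.2 TPM in shZBTB7B and 0.727 TPM in CTRL_shZBTB7B. The smallest adjusted p of limma was 0.0384, close to the threshold of 0.05. Without shZBTB7B replicate 2 the count was 6887 (50.4%), 1605 higher (11.7%) and 5282 lower (38.7%), and 1599 of the 1602 calls were among them in the same direction. Leaving out shZBTB7B replicate 1 or 3, or any one of the 3 controls, left 0 calls by limma. So did normalizing by quantiles or by median ratios, or keeping only genes that averaged 10 TPM or more. These settings, with the rescaling described further on, left 2997 to 4581 genes at an unadjusted p under 0.05. They ended the call of CD274 and every call described below. The folds and the separation of the groups are therefore given as measured, and each call holds for limma on all 6 libraries with the deposited scaling.

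The extracellular matrix fell most widely. Interstitial collagens and the proteins around them give connective tissue its fibres, and type I collagen genes are among those described as ZBTB7B targets in fibroblasts. Of 24 interstitial collagen and matrix genes tested, 19 fell, none rose and 5 missed the threshold. The share called lower was 79.2%, beside 11.0% of all genes tested. The median log2 fold change of the list was -4.22, beside -1.45 for all genes tested. The type I collagen gene COL1A1 was at 19.7, 19.2 and 28.4 TPM in shZBTB7B, against 199, 218 and 1180 TPM in CTRL_shZBTB7B. All 3 shZBTB7B values lay close together, and the fold change was -4.01 (SE 0.83, limma adjusted p = 0.0384). Its partner chain COL1A2 was at 5.31, 29.5 and 0 TPM in shZBTB7B, against 200, 234 and 617 TPM in CTRL_shZBTB7B, a fold change of -5.74 (SE 1.21). FN1, the glycoprotein fibronectin that cells bind through integrins, was at 1.24, 3.02 and 2.19 TPM in shZBTB7B, against 97.8, 356 and 426 TPM in CTRL_shZBTB7B. It fell by 6.33 on the log2 scale (SE 0.82), and here shZBTB7B replicate 2 stood with the other 2. The type VI collagen chains, which form beaded filaments, fell by 6.50 for COL6A1 and 5.89 for COL6A3.

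Basement membrane genes followed the same course. This sheet under epithelia and around vessels is built from type IV collagen, laminins, nidogen and perlecan. Of 18 genes tested 12 fell (66.7%, beside 11.0% of all genes tested), none rose and 6 missed the threshold (median -4.25). COL4A1 was at 0, 0.74 and 1.20 TPM in shZBTB7B, against 96.9, 159 and 211 TPM in CTRL_shZBTB7B, and it fell by 6.57 (SE 0.77). COL4A2, which pairs with it in the type IV trimer, was at 4.14, 2.69 and 1.21 TPM in shZBTB7B, against 112, 312 and 191 TPM in CTRL_shZBTB7B. Perlecan (HSPG2) was at 0, 0.91 and 0 TPM in shZBTB7B, against 41.6, 98.8 and 43.7 TPM in CTRL_shZBTB7B. In all 3 genes the highest shZBTB7B library lay far under the lowest control.

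Enzymes and receptors of the matrix were reduced with it. Of 19 matrix proteases and inhibitors 8 fell (42.1%, beside 11.0% of all genes tested) and 11 did not pass, with a median of -3.46. The collagen chaperone SERPINH1 was at 4.65, 12.8 and 12.3 TPM in shZBTB7B, against 128, 166 and 372 TPM in CTRL_shZBTB7B (fold change -4.31, SE 0.76). Of 20 integrins and adhesion receptors 12 fell and 8 did not pass, with a median of -3.56. ITGA5, which makes the fibronectin receptor with ITGB1, was at 0, 0.79 and 0 TPM in shZBTB7B, against 66.5, 195 and 92.2 TPM in CTRL_shZBTB7B, and fell by 6.46 (SE 0.81). ITGB4, a laminin receptor of hemidesmosomes, was at 0, 0.16 and 0 TPM in shZBTB7B, against 12.6, 20.1 and 35.3 TPM in CTRL_shZBTB7B. Of 19 genes of TGF-beta signalling, the pathway that drives matrix production, 7 fell (36.8%) and 12 did not pass. The matricellular protein CCN1 was at 4.16 to 7.34 TPM in shZBTB7B, against 72.1 to 148 TPM in CTRL_shZBTB7B, and fell by 3.99 (SE 0.70).

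**Figure D3:**
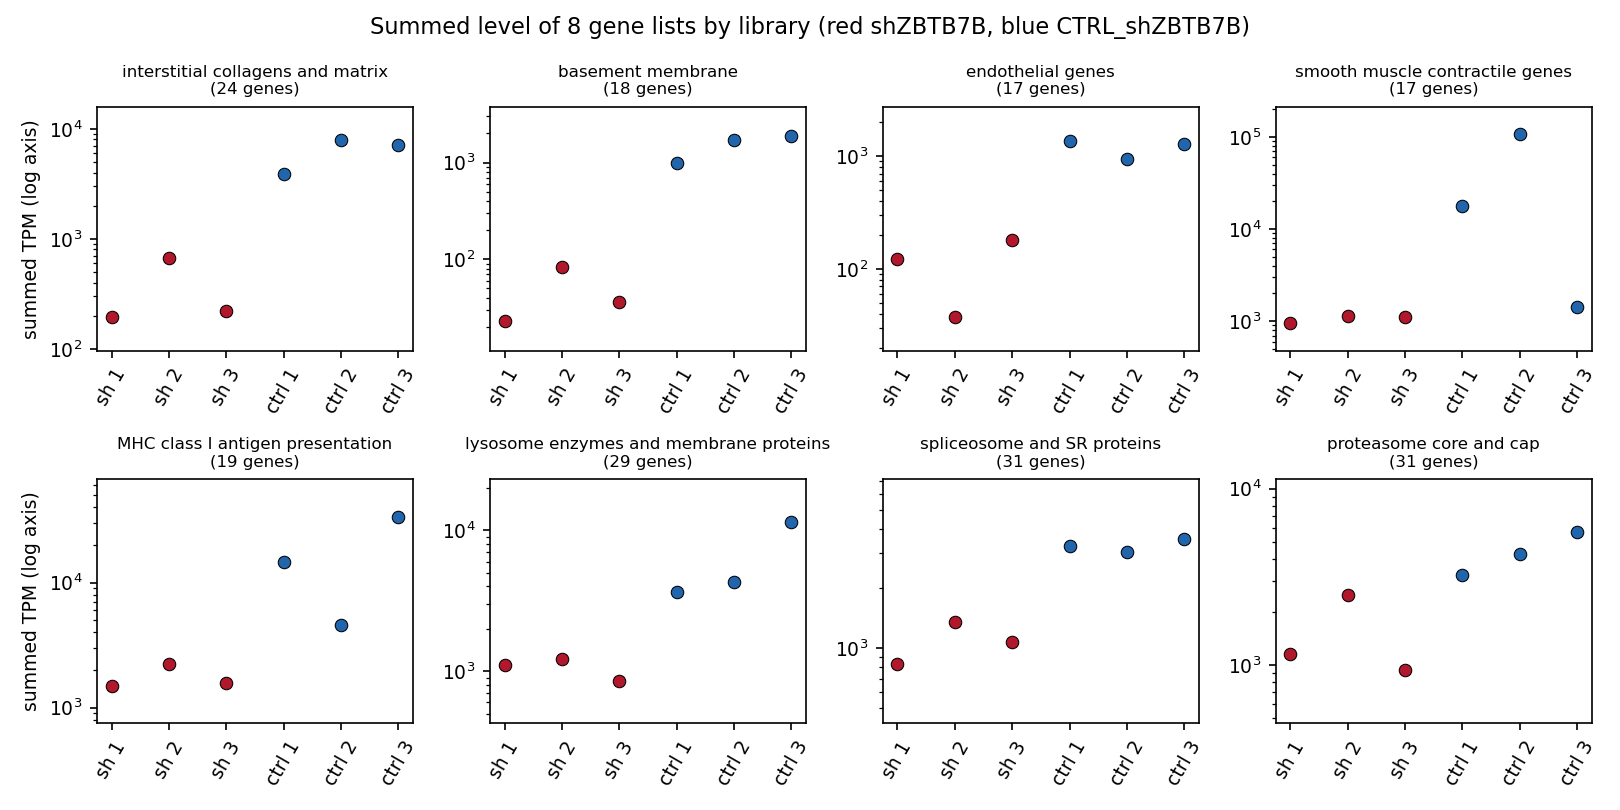
Summed TPM of 8 gene lists in each library on log axes, shZBTB7B in red and CTRL_shZBTB7B in blue; each point is 1 library. Summed endothelial, basement membrane and collagen levels lie lower in all 3 shZBTB7B libraries than in any control, while the smooth muscle genes of the controls lie far apart from each other.

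Genes of other cell types moved beside the matrix, and in these bulk libraries fewer cells of a type and less RNA per cell cannot be told apart. Of 17 endothelial genes 13 fell (76.5%, beside 11.0% of all genes tested), none rose and 4 missed the threshold (median -4.25). The 4 endothelial markers PECAM1, VWF, CDH5 and KDR summed to 0, 9.03 and 6.88 TPM in shZBTB7B, against 306, 134 and 305 TPM in CTRL_shZBTB7B. VWF and CDH5, the clotting factor carrier and the cadherin of vessel lining, were listed at 0 in all 3 shZBTB7B libraries. The angiopoietin receptor TEK was at 0, 0.16 and 0 TPM in shZBTB7B, against 14.9, 9.27 and 11.4 TPM in CTRL_shZBTB7B. Of 12 fibroblast markers 5 fell (41.7%) and 7 did not pass. PDGFRA, DCN, LUM, COL1A1 and COL3A1 summed to 56.3, 296 and 96.2 TPM in shZBTB7B, against 1092, 1583 and 2679 TPM in CTRL_shZBTB7B. Of 16 smooth muscle contractile genes only CALD1 and MYLK fell (12.5%, near the 11.0% of all genes tested), with a median of -4.21. For these genes the controls differed widely among themselves (330 to 60570 TPM summed over 5 markers). The part of vessel, fibroblast and muscle RNA in the falls of collagen, basement membrane and integrin genes was not tested.

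Of the 15 largest falls, FLNA, COL6A2, SMOC2, COL4A1, COL6A1, ITGA5, FN1, COL3A1 and AEBP1 belong to the matrix, its receptors or the actin skeleton. The actin crosslinker FLNA was at 2.08, 6.23 and 3.66 TPM in shZBTB7B, against 603, 2825 and 143 TPM in CTRL_shZBTB7B. AEBP1, a collagen-binding protein, was at 0, 3.85 and 0 TPM in shZBTB7B, against 125, 104 and 160 TPM in CTRL_shZBTB7B, and fell by 6.25 (SE 0.88). The tetraspanin CD81 was at 7.35, 71.3 and 0 TPM in shZBTB7B, against 658, 1362 and 956 TPM in CTRL_shZBTB7B. The membrane protein EMP3 was at 0, 96.0 and 0 TPM in shZBTB7B, against 530.4, 631 and 478 TPM in CTRL_shZBTB7B. In CD81 and EMP3 shZBTB7B replicate 2 thus lay between the other shZBTB7B libraries and the controls. Others in this group were the water channel AQP1, the venule chemokine receptor ACKR1, complement C3 and IGFBP4, which binds insulin-like growth factors.

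Narrow falls were those with a small SD within groups. IGFBP7, a secreted protein of the insulin-like growth factor binding family, was at 56.5, 60.3 and 43.8 TPM in shZBTB7B, against 1283, 1176 and 1458 TPM in CTRL_shZBTB7B. Neither group spread by more than a small part of the distance between them, and the fold change was -4.59 (SE 0.57, limma adjusted p = 0.0384). ACTN4, which crosslinks actin, was at 19.0, 21.5 and 28.4 TPM in shZBTB7B, against 236, 227 and 259 TPM in CTRL_shZBTB7B. TGOLN2, a protein that cycles through the trans-Golgi network, was at 4.57, 4.48 and 6.48 TPM in shZBTB7B, against 55.3, 48.0 and 50.1 TPM in CTRL_shZBTB7B. SF3B1, a core subunit of the U2 snRNP that reads the branch point of introns, was at 11.3, 12.9 and 15.99 TPM in shZBTB7B, against 109, 90.8 and 85.3 TPM in CTRL_shZBTB7B. In ACTN4, TGOLN2 and SF3B1 shZBTB7B replicate 2 lay close to the other shZBTB7B libraries. NRP1, a coreceptor for semaphorins and VEGF, and the large ubiquitin ligase UBR4 behaved alike, with folds of -2.91 and -2.84. NOTCH1 was at 0, 0.17 and 0 TPM in shZBTB7B, against 16.5, 21.01 and 16.4 TPM in CTRL_shZBTB7B, and its target gene HES4 was listed at 0 in all 3 shZBTB7B libraries, against 14.2, 22.5 and 20.1 TPM. SLC35A1, which carries CMP-sialic acid into the Golgi, GOLGA8B, LY6G5B, the adenylyl cyclase ADCY3 and the neuropeptide precursor NPFF were also listed at 0 in all 3 shZBTB7B libraries. For NOTCH1, HES4 and these genes the small SD in shZBTB7B is that of values at or near 0. They passed the filter through the controls alone, so their groups could not overlap.

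**Figure D4:**
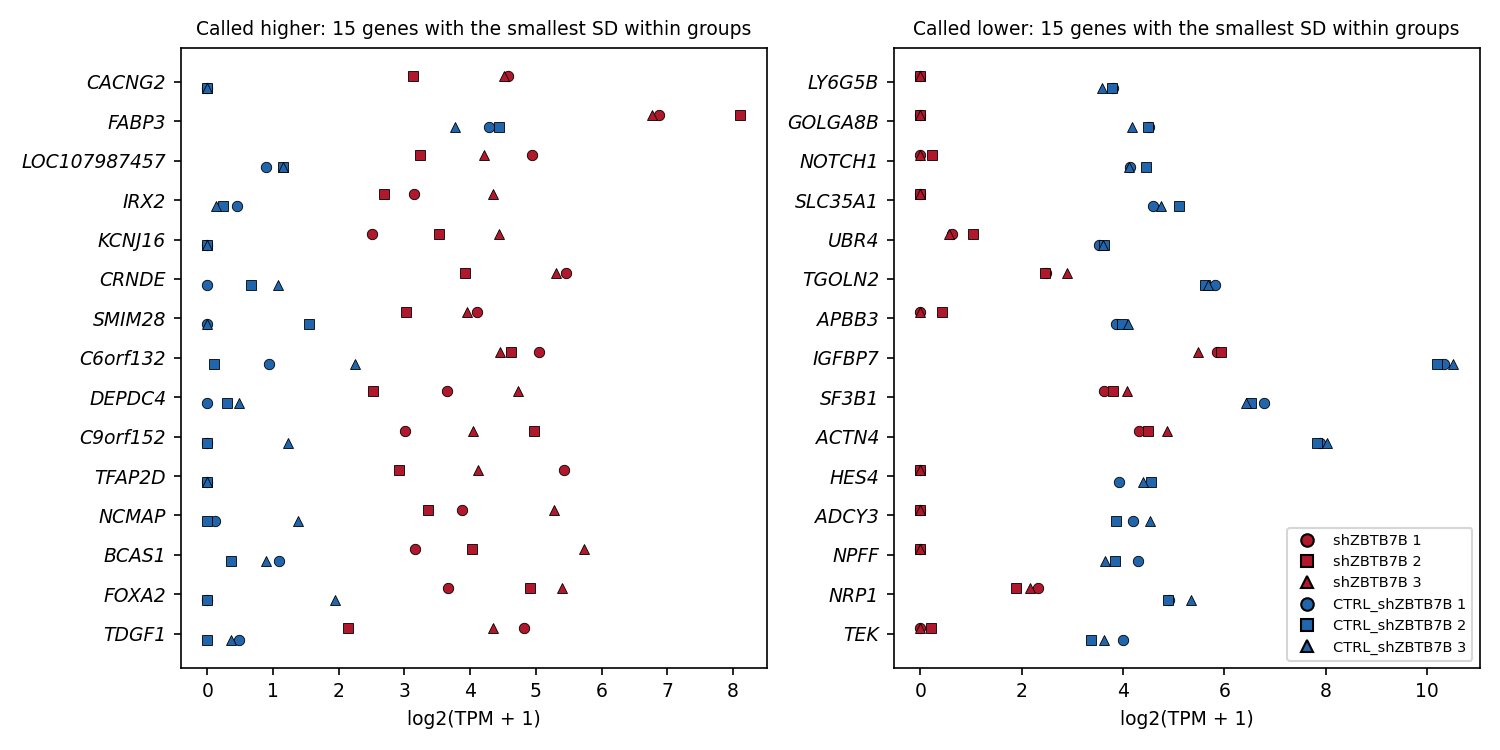
log2(TPM + 1) in each library for the 15 called genes per direction with the smallest SD within groups; red points are shZBTB7B, blue points CTRL_shZBTB7B, and shapes give the replicate. IGFBP7 shows the highest levels among the falls, 43.8 to 60.3 TPM in shZBTB7B against 1176 to 1458 TPM in CTRL_shZBTB7B, and FABP3 the highest among the rises.

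Antigen presentation on MHC class I fell in most of its members. These genes make the heavy chains, load peptides in the endoplasmic reticulum and carry them to the surface. Of 18 tested 12 fell (66.7%, beside 11.0% of all genes tested), none rose and 6 missed the threshold (median -3.76). The loading chaperone CALR was at 25.4, 49.99 and 27.0 TPM in shZBTB7B, against 303, 366 and 948 TPM in CTRL_shZBTB7B, and PDIA3, which works with it, fell by 3.42. Of 13 class II genes only HLA-DRB1 fell (7.69%). It was at 8.54, 116 and 37.8 TPM in shZBTB7B, against 1126, 312 and 2757 TPM in CTRL_shZBTB7B. In the controls HLA-DRB1 ranked replicate 3 above 1 above 2, as did the summed T cell markers (979, 858 and 14.7 TPM). The summed epithelial markers had the same order (2279, 67.8 and 60.2 TPM), and an order of 3 libraries cannot tell cell types apart. The part of leukocyte RNA in the falls of MHC genes was not tested.

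Interferon gamma raises both MHC class I and PD-L1, so its pathway was followed step by step. Of 20 genes tested 4 fell (20.0%, beside 11.0% of all genes tested), none rose and 16 missed the threshold (median -3.02). The receptor chain IFNGR1 was at 0, 2.17 and 8.15 TPM in shZBTB7B, against 63.3, 40.1 and 117 TPM in CTRL_shZBTB7B, and the second chain IFNGR2 did not pass. The receptor kinase JAK1 was at 3.64, 12.9 and 6.41 TPM in shZBTB7B, against 101, 68.4 and 93.7 TPM in CTRL_shZBTB7B, and fell by 3.48 (SE 0.74). JAK2 was at 0, 3.47 and 0 TPM in shZBTB7B, against 15.7, 9.76 and 18.8 TPM in CTRL_shZBTB7B. The peptide transporter TAP1, a target of the pathway, fell by 4.75. The transcription factor IRF1 overlapped between groups, with 565, 24.3 and 527 TPM in shZBTB7B against 71.3, 44.9 and 243 TPM in CTRL_shZBTB7B. Of 25 interferon alpha response genes 0 were called by limma and 10 had an unadjusted p under 0.05.

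Among ligands that restrain T cells, 4 of 14 tested fell (28.6%, beside 11.0% of all genes tested), 0 rose and 10 did not pass. All shZBTB7B values lay below the controls in 6 of the 14, near the 42.4% of all genes tested. The 4 called were CD274, CD276, VSIR and NECTIN2. CD276, also known as B7-H3, was at 0, 4.78 and 0 TPM in shZBTB7B, against 22.9, 37.5 and 66.8 TPM in CTRL_shZBTB7B. VSIR, which encodes VISTA, was at 1.91, 5.51 and 0 TPM in shZBTB7B, against 48.4, 34.6 and 43.5 TPM in CTRL_shZBTB7B, with controls in a narrow band. NECTIN2, a ligand of TIGIT, fell by 4.45 (SE 1.03). The second PD-1 ligand, PDCD1LG2, overlapped between groups (0, 1.21 and 3.41 TPM in shZBTB7B, against 3.76, 1.44 and 17.4 TPM in CTRL_shZBTB7B), and so did the galectin LGALS3. CD47, the signal that holds off phagocytes, was at 1.68, 4.75 and 15.8 TPM in shZBTB7B, against 41.4, 32.5 and 67.4 TPM in CTRL_shZBTB7B, and did not pass (limma adjusted p = 0.0631). IDO1, a tryptophan-degrading enzyme, was at 2765, 26.2 and 2954 TPM in shZBTB7B, against 23.0, 0.73 and 700 TPM in CTRL_shZBTB7B, with overlap.

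Glycolysis was the pathway the study asked about, and few of its genes were called. Of 14 genes of glucose uptake and the upper steps 3 fell and 11 did not pass (median -1.86), and of 11 genes of the lower steps and lactate 2 fell and 9 did not pass (median -2.13). These are 21.4% and 18.2% of the lists, 3 and 2 genes, beside 11.0% called lower and a median of -1.45 for all genes tested, of which 76.7% lay below 0. The glucose transporter SLC2A1 was at 2.71, 0.64 and 0 TPM in shZBTB7B, against 21.2, 9.46 and 12.1 TPM in CTRL_shZBTB7B. The platelet-type phosphofructokinase PFKP was at 0, 5.59 and 3.93 TPM in shZBTB7B, against 49.6, 32.1 and 95.3 TPM in CTRL_shZBTB7B, and PFKFB3, which makes the activator of that step, fell by 3.35. Both called genes of the lower part serve lactate export. SLC16A3, the monocarboxylate transporter MCT4, was at 0, 1.49 and 0 TPM in shZBTB7B, against 11.1, 8.61 and 47.1 TPM in CTRL_shZBTB7B. Its partner BSG, which brings the transporter to the membrane, was at 49.6, 121 and 43.8 TPM in shZBTB7B, against 247, 555 and 584 TPM in CTRL_shZBTB7B.

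The remaining glycolytic enzymes differed by step in how far the groups stood apart. In the lower steps 10 of 11 genes had all shZBTB7B libraries below all controls, beside 42.4% of all genes tested, and LDHB was the exception. Some other lists came near this share, with 22 of 25 hnRNP, 25 of 29 lysosomal and 25 of 31 proteasome genes. Pyruvate kinase PKM was at 91.0, 151 and 85.9 TPM in shZBTB7B, against 308, 404 and 712 TPM in CTRL_shZBTB7B (fold change -2.07, SE 0.64, limma adjusted p = 0.0612). GAPDH was at 1319, 1658 and 935 TPM in shZBTB7B, against 1816, 3870 and 3056 TPM in CTRL_shZBTB7B, a difference of -1.13 that was smaller than that of the median gene. PGK1 was at 57.8, 48.5 and 53.9 TPM in shZBTB7B, against 61.4, 68.0 and 105 TPM in CTRL_shZBTB7B, and its difference of -0.50 turned to 0.14 after quantile normalization and 0.07 after median ratio scaling. Hexokinase HK2 was higher in all 3 shZBTB7B libraries, at 16.2, 13.9 and 17.9 TPM, against 1.87, 0.22 and 10.3 TPM in CTRL_shZBTB7B, and did not pass (limma adjusted p = 0.121). Glucose-6-phosphate isomerase GPI was at 927, 50.5 and 907 TPM in shZBTB7B, against 69.2, 141 and 150 TPM in CTRL_shZBTB7B, with shZBTB7B replicate 2 on the other side of the controls. Of 29 genes of pyruvate entry and the TCA cycle 0 were called by limma and 2 had an unadjusted p under 0.05, with a median of -1.28. MYC, which drives many of these genes, was at 4.90, 1.34 and 0 TPM in shZBTB7B, against 13.4, 38.7 and 34.0 TPM in CTRL_shZBTB7B, and fell by 3.50 (SE 0.95).

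Immediate early genes respond within minutes to stress or growth signals. They fell in 12 of 27 (44.4%, beside 11.0% of all genes tested) and rose in 0, with a median of -2.97. The RNA decay factors ZFP36L1 and ZFP36 were the clearest. ZFP36L1 was at 15.3, 40.0 and 21.6 TPM in shZBTB7B, against 336, 392 and 235 TPM in CTRL_shZBTB7B. ZFP36 was at 28.0, 36.1 and 24.7 TPM in shZBTB7B, against 241, 1245 and 415 TPM in CTRL_shZBTB7B. Of 25 NF-kB targets and chemokines 6 fell, 1 rose and 18 did not pass. NFKB2, a precursor of the NF-kB subunit p52, was at 3.80, 5.06 and 0 TPM in shZBTB7B, against 58.1, 58.7 and 75.9 TPM in CTRL_shZBTB7B, and the chemokine CXCL2 was listed at 0 in all 3 shZBTB7B libraries. The NF-kB subunit RELA fell by 4.59. LCN2, an iron-binding defence protein of epithelia, rose to 169, 24.95 and 188 TPM in shZBTB7B, against 4.68, 0 and 5.25 TPM in CTRL_shZBTB7B.

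Lysosomal genes fell in 12 of 29 (41.4%, beside 11.0% of all genes tested) and rose in none, and 17 missed the threshold, with a median of -3.24. Prosaposin (PSAP), whose peptides help degrade sphingolipids, was at 10.2, 84.0 and 8.96 TPM in shZBTB7B, against 423, 586 and 1640 TPM in CTRL_shZBTB7B. The peptidase TPP1 was at 2.62, 10.7 and 0 TPM in shZBTB7B, against 102, 94.2 and 180 TPM in CTRL_shZBTB7B, and CTSA fell by 5.95. In each of these 3 genes shZBTB7B replicate 2 was the highest of its group. Of 27 genes of endoplasmic reticulum folding 5 fell (18.5%), and of 29 genes of translocation into that compartment 4 fell (13.8%). The second share was near the 11.0% called lower among all genes tested. All shZBTB7B values lay below the controls in 18 of the 29 translocation genes, beside 42.4% of all genes tested. Among the 4 was SEC61A1, the channel itself, at 5.13, 11.4 and 6.77 TPM in shZBTB7B, against 59.9, 70.7 and 155 TPM in CTRL_shZBTB7B.

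Lists of RNA processing, chromatin and signalling genes had shares called lower from 12% to 22.6%, beside 11.0% of all genes tested, and those of the hnRNP (12%), corepressor (13.6%) and mTOR (13.6%) lists were near that background. All shZBTB7B values lay below the controls in 22 of 25 hnRNP, 17 of 22 corepressor and 11 of 22 mTOR genes, beside 42.4% of all genes tested. At a limma unadjusted p under 0.05, 21, 15 and 10 of them were lower, beside 4766 of 13665 genes tested. Of 31 spliceosome and SR protein genes 7 fell, none rose and 24 did not pass (median -2.71). SRSF11 was at 15.1, 21.4 and 12.1 TPM in shZBTB7B, against 278, 118 and 154 TPM in CTRL_shZBTB7B, and PRPF8, at the heart of the spliceosome, fell by 3.44. Of 25 hnRNP and related genes HNRNPL, HNRNPK and HNRNPU fell. Of 28 Polycomb and chromatin genes 6 fell, among them the maintenance methyltransferase DNMT1, at 0, 1.47 and 0 TPM in shZBTB7B, against 26.8, 7.66 and 36.3 TPM in CTRL_shZBTB7B. Of 22 NuRD and corepressor genes 3 fell, among them the corepressor BCOR and the class IIa deacetylase HDAC7. BCOR was at 0, 2.63 and 0 TPM in shZBTB7B, against 13.1, 12.9 and 12.2 TPM in CTRL_shZBTB7B. Of 22 AKT and mTOR genes 3 fell, the kinase MTOR, its partner RICTOR and the inhibitor SESN2, and RICTOR was at 0, 1.24 and 0 TPM in shZBTB7B, against 9.90, 8.72 and 8.75 TPM in CTRL_shZBTB7B.

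Relatives of ZBTB7B, and genes tied to it elsewhere, were examined next. Of 13 ZBTB7 subfamily and related POK genes tested limma called 0, while at an unadjusted p under 0.05 there were 6, 5 lower and 1 higher. The nearest relative ZBTB7A was at 7.04, 9.02 and 10.9 TPM in shZBTB7B, against 28.6, 33.7 and 29.0 TPM in CTRL_shZBTB7B (fold change -1.67, limma adjusted p = 0.118). ZBTB7C was higher in all 3 shZBTB7B libraries, at 13.7, 2.46 and 54.2 TPM, against 1.98, 1.54 and 0.20 TPM in CTRL_shZBTB7B, and did not pass (limma adjusted p = 0.104). Of the 13 members 6 had all shZBTB7B values below the controls and 1, ZBTB7C, had all above, beside 42.4% and 3.02% of all genes tested. Of 14 genes linked to ZBTB7B in other systems 5 fell, COL1A1, COL1A2, FN1, KLF2 and HNRNPU, and 9 did not pass. That was 35.7% called lower, beside 11.0% of all genes tested. CD8A and CD4, which ZBTB7B sets in opposite directions in mouse thymocytes, did not pass, and CD4 was at 0, 3.98 and 0 TPM in shZBTB7B, against 60.9, 6.33 and 165 TPM in CTRL_shZBTB7B. Of 19 SUMO genes, named because the study examined SUMO on ZBTB7B, 1 fell (5.26%). This was the SUMO protease SENP6, at 1.56, 10.1 and 0 TPM in shZBTB7B, against 40.0, 51.6 and 32.8 TPM in CTRL_shZBTB7B.

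Housekeeping lists had few calls. Limma called 0 of 44 large and 0 of 32 small ribosomal protein genes, 0 of 31 proteasome genes, 0 of 35 genes of respiratory complexes III to V and 0 of 23 autophagy genes. At an unadjusted p under 0.05 there were 0, 2, 16, 0 and 10 genes in the same order, all lower. Their medians were -0.93, -1.04, -1.66, -1.02 and -1.93, beside -1.45 for all genes tested. All shZBTB7B values lay below the controls in 4, 6, 25, 0 and 15 genes in the same order, beside 42.4% of all genes tested. Ribosomal protein genes of the large subunit had a median of 751, 2201 and 867 TPM in shZBTB7B, against 2955, 2386 and 1678 TPM in CTRL_shZBTB7B, so shZBTB7B replicate 2 lay between 2 of the controls. Of 37 complex I genes 1 was called, NDUFA9, which rose to 5572, 190 and 14107 TPM in shZBTB7B, against 33.7, 17.3 and 22.7 TPM in CTRL_shZBTB7B. Among genes averaging 50 TPM or more, NTAN1 and SUMO2 had the smallest spread over the 6 libraries, and their groups overlapped. NTAN1, an amidase of the N-end rule pathway, was at 91.6, 98.2 and 74.1 TPM in shZBTB7B and at 88.2, 89.5 and 78.4 TPM in CTRL_shZBTB7B, the smallest SD of log2(TPM + 1) of any gene averaging 50 TPM or more. SUMO2 was at 95.2, 106 and 134 TPM in shZBTB7B, and at 96.9, 113 and 145 TPM in CTRL_shZBTB7B.

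**Figure D5:**
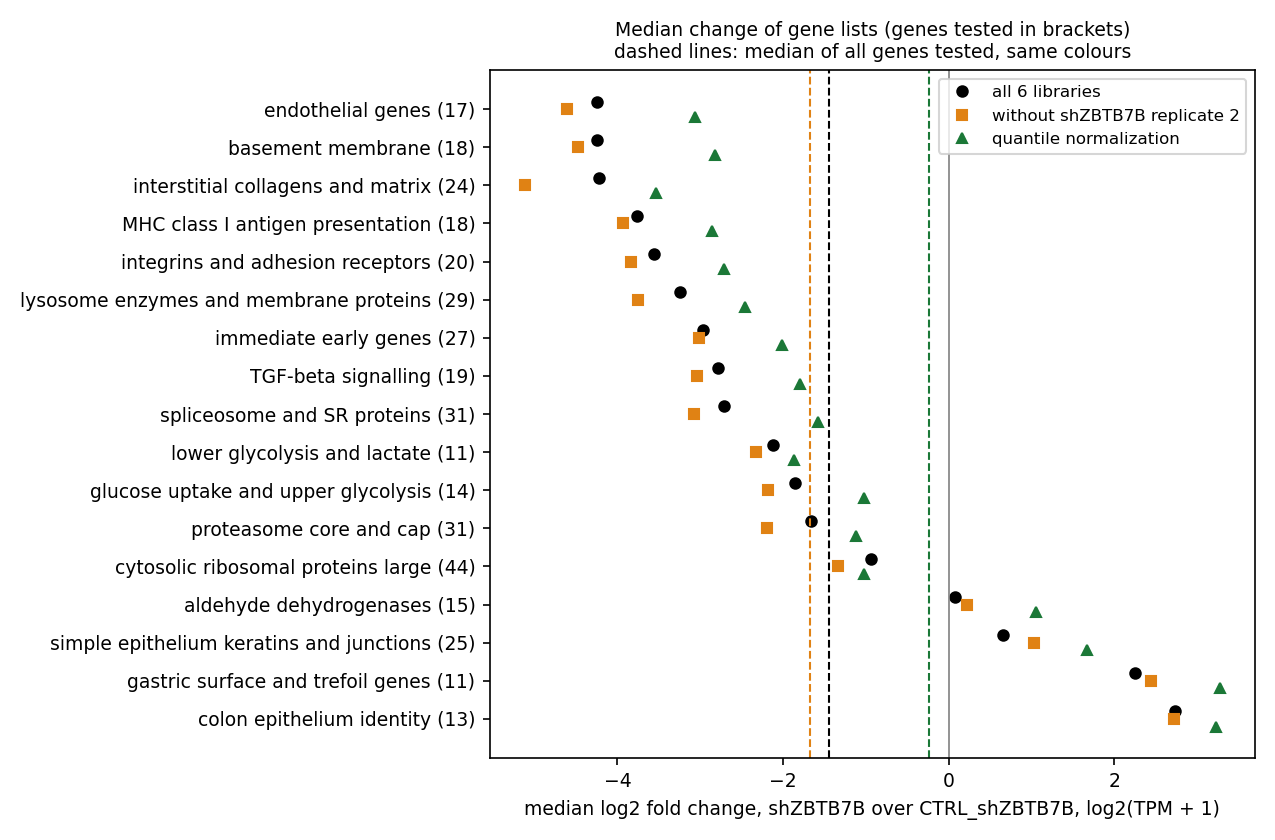
Median log2 fold change of shZBTB7B over CTRL_shZBTB7B for 17 gene lists, with the number of genes tested in brackets; black circles use all 6 libraries, orange squares leave out shZBTB7B replicate 2, green triangles follow quantile normalization, and dashed lines give the median of all genes tested in the same colours (-1.45, -1.67 and -0.23). Matrix, basement membrane and endothelial lists lie far left of each line, the ribosomal list lies right of the line with all 6 libraries (-0.93) and left of it after quantile normalization (-1.02), and gut and stomach epithelial lists right of 0.

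Among the 98 rises, the genes named for the largest changes were mostly highest in shZBTB7B replicates 1 and 3, far lower in replicate 2 and lowest in the controls. RAB3B, a GTPase of secretory vesicles, was at 27239, 116 and 18929 TPM in shZBTB7B, against 17.6, 2.33 and 3.44 TPM in CTRL_shZBTB7B. P4HA2, a prolyl hydroxylase that modifies collagen, was at 17966, 107 and 13426 TPM in shZBTB7B, against 20.0, 14.7 and 13.02 TPM in CTRL_shZBTB7B. The acyltransferase MBOAT1 was at 15848, 136 and 13874 TPM in shZBTB7B, against 30.5, 6.57 and 21.1 TPM in CTRL_shZBTB7B. FAM110D, BCDIN3D, SLC26A5, ZNF426, BRIP1, NRG4, PNO1, FBXO48, C1orf229 and LOC112267959 were likewise highest in shZBTB7B replicates 1 and 3, lower in replicate 2 and lowest in the controls. The kinase gene BRAF followed it as well, at 3410, 45.4 and 3630 TPM in shZBTB7B, against 23.4, 9.38 and 10.3 TPM in CTRL_shZBTB7B.

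The rises and the falls differed in transcript sequence. Words of 24 bases that occur in the transcripts of at least 200 genes, as interspersed repeats leave them, were searched in 1 transcript per gene. They were found in 47 of 92 genes called higher that could be searched (51.1%), in 105 of 1457 called lower (7.21%) and in 26.3% of all genes tested that could be searched. RAB3B, P4HA2, MBOAT1, FAM110D, BCDIN3D, ZNF426 and BRIP1 carry them, and SLC26A5 and NRG4 do not. Genes with such a word took 62.1%, 5.17% and 56.5% of TPM in shZBTB7B replicates 1, 2 and 3, against 8.74%, 9.73% and 9.75% in CTRL_shZBTB7B. In TPM a gain of one class lowers all others, and the part of this class in the rises and falls was not tested. Rescaled over the 10073 tested genes without such a word, limma called 0, with 2997 at an unadjusted p under 0.05 and a median of -1.38. The genes called higher had a median transcript GC of 44.7%, those called lower 54.5% and all tested genes 48.3%, with median transcript lengths of 3717, 3374 and 3324 bases.

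Among the other rises, S100P, a calcium-binding protein of gut and stomach epithelium, was at 294, 300.2 and 298 TPM in shZBTB7B, against 39.7, 0 and 0.96 TPM in CTRL_shZBTB7B. The 3 shZBTB7B values nearly coincided, and the fold change was 6.11 (SE 1.29, limma adjusted p = 0.0384). PHGR1, a small protein of gut epithelium, rose to 377, 71.4 and 69.0 TPM in shZBTB7B, against 1.56, 0 and 0 TPM in CTRL_shZBTB7B. FABP3, a fatty acid carrier best known from heart, rose to 116, 276 and 108 TPM in shZBTB7B, against 18.5, 20.7 and 12.6 TPM in CTRL_shZBTB7B, a fold change of 3.09 (SE 0.70). FOXA2, an endoderm factor, was at 11.7, 28.9 and 41.1 TPM in shZBTB7B, against 0, 0 and 2.85 TPM in CTRL_shZBTB7B. The stomach peptide TFF1 was at 151, 724 and 1652 TPM in shZBTB7B, against 75.2, 7.90 and 0 TPM in CTRL_shZBTB7B. PIGR, which carries antibodies across mucosa, and GSTA1, a glutathione transferase, were chosen after their values were seen. PIGR was at 104, 13.1 and 101 TPM in shZBTB7B, against 0.91, 0.11 and 0.18 TPM in CTRL_shZBTB7B, and GSTA1 was at 88.7, 340 and 15.1 TPM in shZBTB7B, against 0.92, 0 and 0.22 TPM in CTRL_shZBTB7B.

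Several rises were among the 15 with the smallest SD within groups, though their shZBTB7B libraries still differed. The AMPA receptor partner CACNG2 was at 22.8, 7.73 and 21.8 TPM in shZBTB7B, and the potassium channel KCNJ16 was at 4.70, 10.5 and 20.7 TPM in shZBTB7B, both listed at 0 in all 3 controls. IRX2, a homeobox factor, was at 7.87, 5.43 and 19.3 TPM in shZBTB7B, against 0.37, 0.18 and 0.09 TPM in CTRL_shZBTB7B. CRNDE, a noncoding RNA first described in colorectal neoplasia, was at 42.8, 14.1 and 38.5 TPM in shZBTB7B, against 0, 0.59 and 1.10 TPM in CTRL_shZBTB7B. TDGF1, a NODAL coreceptor, was at 27.25, 3.43 and 19.26 TPM in shZBTB7B, against 0.39, 0 and 0.28 TPM in CTRL_shZBTB7B, and rose by 3.49. BCAS1 was at 7.90, 15.31 and 52.46 TPM in shZBTB7B, against 1.12, 0.29 and 0.86 TPM in CTRL_shZBTB7B, and rose by 3.53. Both TDGF1 and BCAS1 carry a repeat word. Of 38 potassium channel genes 2 rose, KCNJ16 and KCNJ15, 4 fell, among them KCNJ8, KCNN2 and KCND1, and 32 did not pass. These shares were 5.26% higher and 10.5% lower, beside 0.717% and 11.0% of all genes tested.

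As lists, the epithelial genes had few calls, but their medians lay above that of all genes tested (-1.45). Of 13 colon identity genes only PHGR1 was called (median 2.74), and of 11 gastric surface genes only TFF1 was (median 2.25). These are 7.69% and 9.09% called higher, beside 0.717% of all genes tested. All shZBTB7B values lay above the controls in 1 of the 13 and 5 of the 11, beside 3.02% of all genes tested. Of 25 keratin and junction genes none rose, and the median of the list was 0.66. The epithelial markers EPCAM, CDH1, KRT8, KRT18 and KRT19 summed to 720, 309 and 616 TPM in shZBTB7B, against 67.8, 60.2 and 2279 TPM in CTRL_shZBTB7B. The highest epithelial level was thus that of CTRL_shZBTB7B replicate 3, and the other 2 controls lay under all 3 shZBTB7B libraries. Beside these rises, genes of stomach glands summed to 0, 41260 and 2086 TPM in shZBTB7B, against 721, 49.1 and 2.64 TPM in CTRL_shZBTB7B, and their part in the rises was not tested.

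Called genes were spread over all chromosomes examined, and the share of tested genes called lower ran from 4.81% on chromosome 18 to 13.2% on chromosome 22.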

How the data were processed

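Total RNA of 3 shZBTB7B and 3 CTRL_shZBTB7B libraries was captured with probes and sequenced. Per the study's methods the authors aligned reads to hg19 with HISAT and quantified genes with RSEM, versions not given in the sources used here. The deposited table holds TPM; its header names no unit, and TPM was taken from the methods and from library sums near 1000000. TPM keeps no depth. The separate table of the inhibitor experiment was not used here.

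Genes with at least 1 TPM in at least 3 of 6 libraries were compared on log2(TPM + 1) with limma 3.58.1 in R 4.3.3, with a variance trend, two-sided, and Benjamini-Hochberg adjustment over all 13665 genes. Genes were called at an adjusted p under 0.05. Fold changes are on the log2(TPM + 1) scale, which understates changes of low genes. The fit was tested on simulated data with known changes, drawn from a normal distribution with the same spread in all libraries. These had no excess of zeros, no shift in makeup and no outlying library, so the test does not cover such traits of the real libraries. Tables were handled with pandas 2.3.3 and numpy 2.4.6 and drawn with matplotlib 3.10.9.

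The members and gene lists were chosen with earlier results of these data known, so lists are described by counts and medians. Genes were named as follows: the 6 study genes; per direction, the 15 called genes with the largest change and the 15 with the smallest SD within groups, with at least 10 TPM in the higher group; up to 3 called members per list and direction by p; the 10 genes with the smallest SD over all libraries and at least 50 TPM; members of the lists on glycolysis, checkpoint ligands, interferon gamma, SUMO and ZBTB7 by role; and cell type markers. PIGR and GSTA1 were added after their values were seen, and some genes met by the rule are not reported here. Repeat words are 24-base words found, on either strand, in transcripts of at least 200 genes, 435 words over 17919 genes with a GENCODE transcript. A promoter motif search is not reported, because only 79.6% of tested genes had a promoter sequence. Alternatives covered scaling, pseudocount, filters, variance models, a replicate block and leaving out each library.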

Additional observations from a re-analysis of the deposited data

How the results depend on the processing

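The number of calls depended on most choices. Against 1602 genes, limma called 468 with a pseudocount of 0.1, 372 with no filter on low values, 609 with no variance trend and 7464 with array weights, and it called 0 after quantile normalization (3085 genes at an unadjusted p under 0.05), after median ratio scaling (3408), among genes averaging 10 TPM or more (3193) and, in an alternative chosen after seeing the data, after rescaling over genes without a repeat word (2997). Leaving out 1 library gave 0 to 6887 calls, 0 for each library but shZBTB7B replicate 2. The share of higher calls was 6.12% in all 6 libraries, 18.3% with array weights and 23.3% without shZBTB7B replicate 2. Of the 6 study genes 1 was called, against 2 with array weights and 0 with quantile normalization, median ratio scaling, no filter, a mean of 10 TPM or more, no variance trend or rescaling without repeat words, and 0 to 3 when 1 library was left out. ALDH1A1, at 0.08, turned to -0.99 with a pseudocount of 0.1, -2.31 with array weights, -2.17 and -0.27 without shZBTB7B replicates 2 and 3, and -0.23 without CTRL_shZBTB7B replicate 1, and leaving out 1 library gave -2.17 to 2.70. PGK1 turned to 0.14 after quantile normalization and 0.069 after median ratio scaling. The cause was not tested. Of 28 called genes examined one by one, 28 kept their direction and call without shZBTB7B replicate 2, and 23 with the replicate block. Replicate numbers did not pair the libraries: deviations of same-numbered libraries correlated at 0.0143, 0.0281 and -0.0705, and the replicate block gave 1387 calls, 1065 of them shared with the 1602, 18.5% of them higher.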
